A study of Mus musculus with 2 samples.

Results

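The endoplasmic reticulum (ER) secretory machinery was examined in mouse granulocyte-monocyte progenitors as 45 named genes of ER import, folding, glycosylation, stress response and degradation. The genes were chosen by name from their known functions, and all 45 were found once among the 43346 annotated genes of both libraries. Granulocyte-monocyte progenitors are the marrow precursors of neutrophils and monocytes. The data are total RNA sequencing of 1 group of 2 libraries, replicates 1 and 2, taken from the marrow of C57BL/6J mice, males at an age of 5 to 6 weeks. Each library was made from 100 ng of RNA after removal of ribosomal RNA, with no treatment or genetic change named in the labels. Both replicates carry the same donor identifier, and the labels do not say whether they came from separate animals, so the spread between them may be partly technical. With 1 group there is no contrast: levels, ratios between genes within a library and the spread between the libraries are described, and no p-value is given.

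Proteins bound for secretion, granules, lysosomes or the cell surface enter the ER through the Sec61 channel, lose their signal peptide, receive N-linked glycans, and fold with the help of chaperones and disulfide-forming enzymes. When unfolded proteins build up, the sensors Ern1 (IRE1), Atf6 and Eif2ak3 (PERK) start the unfolded protein response, and failed proteins are passed to the cytosol for degradation. Progenitors of the neutrophil line make large amounts of granule proteins such as myeloperoxidase, a glycoprotein that is known to bind calreticulin and calnexin while it matures.

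Expected counts over annotated genes summed to 49473841 in replicate 1 and 44260902 in replicate 2. Levels are TPM, which scales for length and sums to the same total over every feature in each deposited file. Nuclear protein-coding genes held 19.1% of all TPM in replicate 1 and 22.8% in replicate 2, so that a deposited TPM is shifted between the libraries. Where stated, TPM was rescaled so that the 21461 nuclear protein-coding genes make up the total. The gate genes Kit, Cd34, Fcgr3 and Fcgr2b were all at or above 10 TPM, and the granule genes Mpo, Elane, Prtn3 and Ctsg were all at or above 100 TPM. Plasma cells, other marrow cells with a large ER, had none of 5 markers at 1 TPM, with a summed level of 0.86 and 0.28 TPM. Tnfrsf17 and Pou2af1 had 0 counts in both libraries, while Sdc1 had 71 and 39, Jchain 52 and 14, and Prdm1 31 and 0. No marker of the lists for B cells (5 genes), stroma and osteoblasts (6), erythroid cells (4) or T and NK cells (4) reached 1 TPM in both libraries, while 3 of 4 mature neutrophil markers did and none reached 10 TPM. On rescaled TPM, Pdgfrb of the stroma list was the 1 marker of these 4 lists and of plasma cells to reach 1 in both libraries. It was at 3.78 and 3.90, on 542 and 514 counts. In replicate 1 alone Prdm1 (1.73), Jchain (1.57) and Sdc1 (1.21) passed 1, and in replicate 2 alone Hbb-bs (2.06). Of the neutrophil markers, Mmp8 (14.4 and 15.8) and Mmp9 (10.9 and 10.2) were above 10 on that scale.

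Promoters of ER chaperone genes are known for the ER stress response element, CCAAT and CCACG with 9 bases between them, to which ATF6 binds together with NF-Y. The element was first described in promoters of chaperone genes, some of them among the 45. It was searched on both strands of RefSeq promoter windows (GRCm38.p6, 250 bases before to 50 after each start), which were at hand for 38 of the 45 genes. It was present in 8 of these 38 (21.1%), against 37 of 27025 genes with a window (0.137%), and Hsp90b1 carried it at 2 places. The windows are shown with CCAAT and CCACG in capitals and 15 bases on each side, because they show the shared spacing and the bases that differ between the genes.
Hspa5: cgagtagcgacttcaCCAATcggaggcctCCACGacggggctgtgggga
Calr: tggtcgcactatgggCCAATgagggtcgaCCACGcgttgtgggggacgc
Canx: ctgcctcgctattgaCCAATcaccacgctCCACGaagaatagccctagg
Hsp90b1, nearer to the start: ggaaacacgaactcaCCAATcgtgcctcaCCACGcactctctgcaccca
Hsp90b1, farther from the start: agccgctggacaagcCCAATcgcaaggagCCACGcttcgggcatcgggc
Pdia6: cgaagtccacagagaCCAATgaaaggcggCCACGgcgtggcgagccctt
Creld2: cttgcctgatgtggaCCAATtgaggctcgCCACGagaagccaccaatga
Dnajc3: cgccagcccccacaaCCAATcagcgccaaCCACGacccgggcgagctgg
Syvn1: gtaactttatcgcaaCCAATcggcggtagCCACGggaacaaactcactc

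Each is written on the strand that reads CCAAT first. These are chr2:34772010-34772058 on the plus strand for Hspa5 and chr8:84847060-84847108 on the plus strand for Calr, whose own strand is minus. Canx lies at chr11:50325785-50325833 on the minus strand, which is its own. The Hsp90b1 windows are chr10:86705518-86705566 on the plus strand and chr10:86705623-86705671 on the minus strand, the gene itself being on the minus strand. Pdia6 lies at chr12:17266476-17266524 on the plus strand, Creld2 at chr15:88819505-88819553 on the minus strand, Dnajc3 at chr14:118937812-118937860 on the plus strand and Syvn1 at chr19:6046517-6046565 on the plus strand. The element's base nearest to the RefSeq start lay between 26 bases (Syvn1) and 194 bases (the farther Hsp90b1 copy) before it, and at 47 bases for Hspa5. It read in the direction of the gene for Hspa5, Canx, Pdia6, Dnajc3, Syvn1 and the farther Hsp90b1 copy, and against it for Calr, Creld2 and the nearer Hsp90b1 copy.

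Of 2458 genes with a window and at least 10 TPM in both libraries, 8 held the element (0.325%), and 7 of those 8 were among the 45: Calr, Canx, Creld2, Dnajc3, Hsp90b1, Hspa5 and Pdia6. The remaining one was Hnrnpa3, a splicing regulator, named here after its value was seen. The median level of the 8 ER genes with the element was 153 and 226 TPM in replicates 1 and 2, and that of the 30 with a window and no element was 37.5 and 47.3 TPM. The element did not go with a high level in every case, since Syvn1 carried it and had the lowest level of the 45. Among 65 other genes of the pathway with a window, 1 held it, Derl3, at 0.01 and 0.27 TPM. A shorter relative, ATTGG and CCACG with 1 base between them, was found in Herpud1 and Dnajb11, 2 of 38 genes, against 12 of 27025 (0.0444%). The Herpud1 copy, at chr8:94386362-94386402 on the plus strand, ended 42 bases before the start and is printed with both parts in capitals for comparison with the longer element.
Herpud1: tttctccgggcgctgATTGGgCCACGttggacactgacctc

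The TGACGTGG sequence, known as a binding site of XBP1 and ATF6, was in 0 of the 38 windows, against 193 of 27025 (0.714%). Of the 65 other genes of the pathway it was in 7 (10.8%): Kdelr3, Sec23a, Sec24d, Txndc11, Txndc5, Ube2j1 and Vcp. The TGATGNAAT form of the element bound by ATF4 with C/EBP partners was also in 0 of 38 and in 0 of those 65, against 293 of 27025 (1.08%). These counts speak only of the letters in these windows.

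The ER genes were among the more abundant mRNAs of the progenitors. Their median was 41.9 and 49.1 TPM in replicates 1 and 2 (45.5 ± 5.13, SD, n = 2), and that of the 12826 nuclear protein-coding genes with a count was 3.32 and 3.91 TPM. At or above 1 TPM in both libraries were 44 of the 45 genes, against 40.8% of all nuclear protein-coding genes. At or above 10 TPM in both libraries were 39 of 45, against 14.3%. The remaining 6 were Ero1l, Sec63, Sec61g, Atf6, Eif2ak3 and Syvn1. At or above 100 TPM in both libraries were 10 of 45, against 1.24%: Calr, Hspa5, Hsp90b1, P4hb, Canx, Ppib, Pdia6, Sec11c, Pdia4 and Manf. On rescaled TPM all 45 were at or above 1, against 47.8%, 44 at or above 10, against 34.8%, and 35 at or above 100, against 7.14%. By mean TPM, 32 of 45 stood at or above the 90th percentile of the nuclear protein-coding genes with a count. Together the 45 genes held 2.08% and 2.14% of nuclear protein-coding TPM. The 5 most abundant, Calr, Hspa5, Hsp90b1, P4hb and Canx, held 53.3% and 53.2% of that share. They are 4 chaperones and 1 disulfide isomerase.

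**Figure D1:**
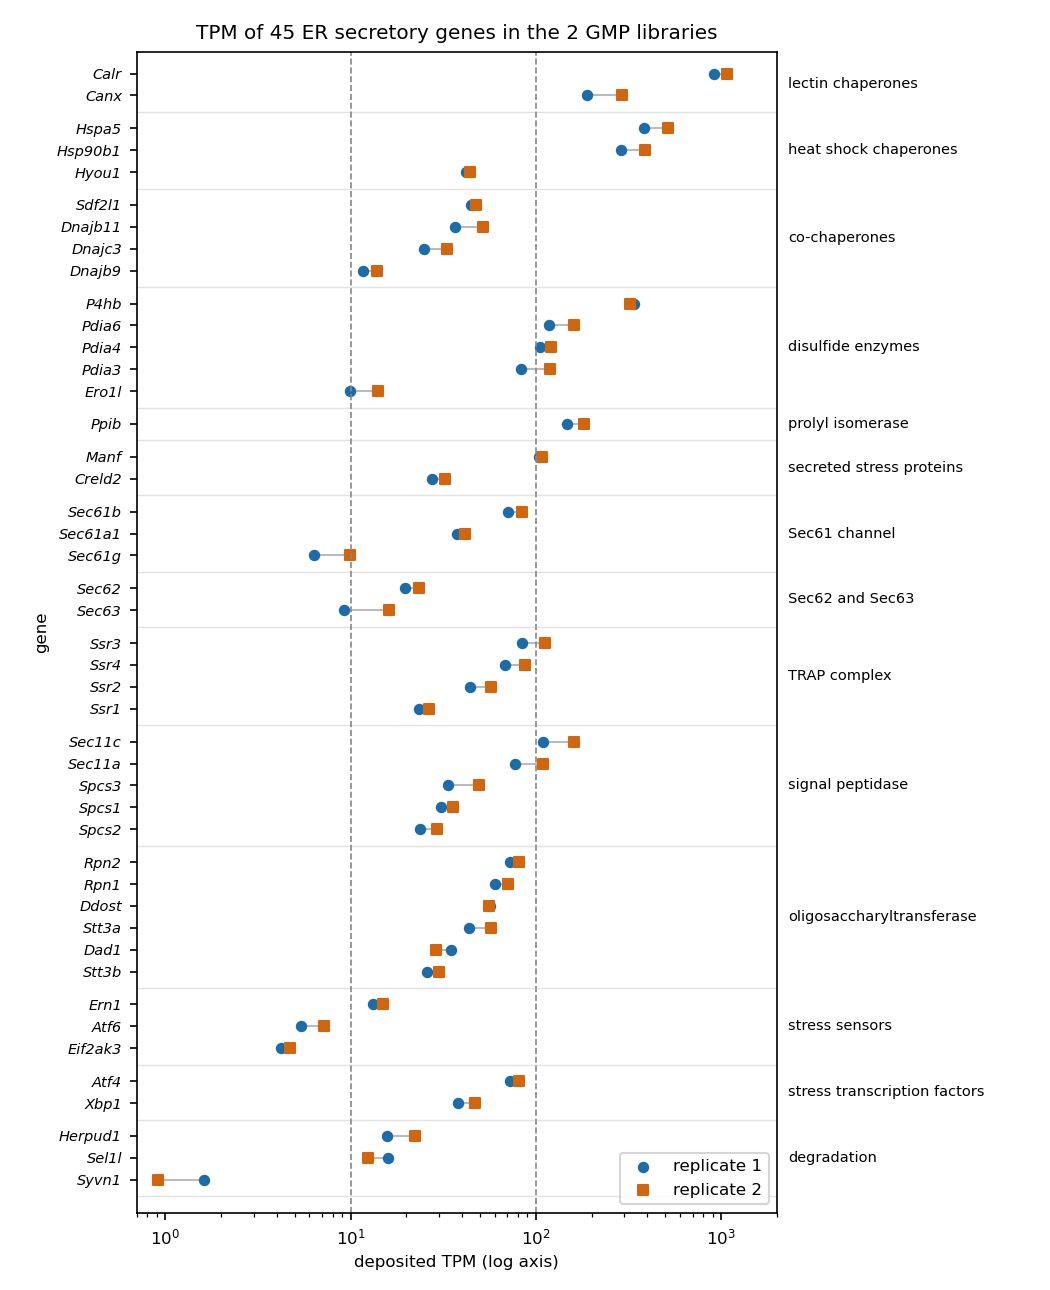
Deposited TPM (log axis) of each of the 45 genes in replicate 1 (circles) and replicate 2 (squares), grouped by role, with dashed lines at 10 and 100 TPM. Calr stands highest at 917 and 1078 TPM, the stress sensors have the lowest median of the roles, and Syvn1 is lowest of all at 1.61 and 0.92 TPM.

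The lectin chaperones bind monoglucosylated glycoproteins, Calr in the ER lumen and Canx in the ER membrane. Calr (chr8:84841850-84846934, minus strand) was at 917 and 1078 TPM in replicates 1 and 2 (997 ± 114, SD, n = 2), and stood at rank 14 of the nuclear protein-coding genes. Canx (chr11:50293961-50325673, minus strand) was at 188 and 291 TPM. Within a library, Calr was 4.88 and 3.70 times as abundant as Canx, a ratio lower in replicate 2. On transcripts annotated as coding alone, an alternative chosen after seeing the data, it was 3.39 and 3.17 times, so the libraries lay closer together. Over all transcripts, coding or not, the message of myeloperoxidase, their known client, was 2.78 and 2.12 times as abundant as that of Calr. Relatives of this pair are known mainly from the testis: Clgn had 0 counts in both libraries, and Calr3 was at 0.93 and 0.52 TPM.

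Hspa5 (BiP), the ER member of the Hsp70 family that also holds the stress sensors inactive, was at 383 and 518 TPM. Hsp90b1 (GRP94), the ER member of the Hsp90 family, was at 290 and 387 TPM. Hyou1 (GRP170), which exchanges nucleotide on BiP, was at 41.9 and 44.3 TPM. The Hspa5 message was 1.32 and 1.34 times as abundant as Hsp90b1 within a library, the closest repeat among the 8 subunit ratios examined. Each of the 4 co-chaperones was less abundant than Hspa5 by a wide margin. Sdf2l1, which works with the ER J-proteins, was at 44.5 and 47.6 TPM, and Dnajb11 (ERdj3), which delivers unfolded chains to BiP, at 36.8 and 51.8 TPM. Dnajc3 (p58IPK) was at 24.9 and 33.0 TPM, and Dnajb9 (ERdj4), which recruits BiP to IRE1, at 11.7 and 13.9 TPM. Sil1, another exchange factor of BiP outside the 45, was at 10.8 and 12.01 TPM.

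Disulfide bonds are formed and shuffled by protein disulfide isomerases, which Ero1 oxidases recharge. P4hb, the main isomerase, led at 337 and 324 TPM and was 1 of 5 genes of the 45 whose TPM was not higher in replicate 2. Its TPM was spread over 2 coding transcripts that moved in opposite directions. P4hb-201, of 2861 bases, was at 217 and 249 TPM. P4hb-203, of 770 bases, was at 120 and 74.6 TPM, on 10.8% and 5.93% of the gene's counts. Pdia6 was at 117 and 161 TPM, Pdia4 at 106 and 120 TPM, and Pdia3 (ERp57), the isomerase that works with calreticulin and calnexin, at 83.3 and 120 TPM. Over all transcripts, all 3 lay below P4hb in both libraries, in the same order, and Pdia4 and Pdia3 nearly met in replicate 2. On coding transcripts alone Pdia6 was at 93.0 and 141 TPM, below Pdia4 in replicate 1. Ero1l, the oxidase, was at 9.90 and 14.1 TPM, on either side of the 10 TPM line, and its relative Ero1lb at 3.05 and 3.88 TPM. Erp29, outside the 45, was the one gene of 81 others of the pathway at or above 100 TPM, at 182 and 248 TPM. It led a list of 9 further folding enzymes and partners, of which 6 were at or above 10 TPM and Pdia5 was lowest at 2.18 TPM in both libraries. The isomerase relatives Pdilt and Pdia2 had 0 counts in both libraries and 0 and 12 counts. Ppib (cyclophilin B), a prolyl isomerase of the ER lumen, was at 146 and 182 TPM. The secreted stress proteins differed from each other: Manf, a small ER protein induced by stress, was at 103 and 108 TPM, and Creld2 at 27.4 and 32.4 TPM. Cdnf, the relative of Manf, was at 2.60 and 0.05 TPM on 119 and 16 counts.

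Import takes place through the Sec61 channel, a complex of the alpha, beta and gamma subunits. Sec61a1 was at 37.4 and 41.7 TPM and Sec61b at 71.0 and 83.8 TPM, an alpha to beta ratio of 0.526 and 0.498. Sec61g (chr11:16500530-16508484, minus strand) was listed at 6.39 and 9.96 TPM, 0.0899 and 0.119 of Sec61b. This value cannot be read as the level of the Sec61g message alone, because a pseudogene is identical to it over 373 bases of Sec61g-207, its transcript with the highest mean share. Sec61g-202 held more in replicate 1 (40.2% against 33.4%) and Sec61g-207 in replicate 2 (51.5% against 31.3%). That pseudogene, Gm10177, annotated as a transcribed processed pseudogene, was assigned 4727 and 2705 expected counts against 753 and 675 for Sec61g, and the counts of both are fractional, as split reads give. Together, Sec61g and Gm10177 were at 129 and 115 TPM, 1.82 and 1.37 times Sec61b. Which of the loci gave the reads was not tested. Of the 45 genes, 4 had a pseudogene copy of at least 90% identity over at least 200 bases, and for the other 3 (Spcs2, Calr, Dnajb9) the copies held under 1% of the summed counts. Sec61b, to which the ratios refer, was not among the 4, but its counts were fractional too, at 3960.92 and 3290.87. Which other feature shared its reads was not tested. Sec62 and Sec63, which serve the import of proteins after their synthesis and recruit BiP, were at 19.6 and 23.5 TPM and at 9.23 and 16.2 TPM. Sec61a2, the second alpha gene, was at 1.45 and 3.97 TPM, below Sec61a1 in both libraries.

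The TRAP complex, which sits beside Sec61 and aids the entry of some chains, had its 4 subunits at different levels. Ssr3 was at 84.3 and 111 TPM, Ssr4 at 67.9 and 87.0 TPM, Ssr2 at 44.2 and 57.1 TPM and Ssr1 at 23.5 and 26.4 TPM. This order was the same in both libraries, and Ssr3 was more than 3 times as abundant as Ssr1 in each. That ratio depends on the listed lengths, 9306 bases for Ssr1-201 and 2957 for Ssr3-201. The counts were closer, 31952 and 31742 for Ssr3 and 30942 and 26781 for Ssr1. The signal peptidase cuts off the signal peptide with either of its catalytic subunits, Sec11a or Sec11c. Sec11c was at 110 and 160 TPM and Sec11a at 77.4 and 110 TPM, and their ratio, Sec11a to Sec11c, was 0.705 and 0.686. On coding transcripts alone the same ratio was 0.0338 and 0.131, since most of the Sec11a level was on transcripts not annotated as coding. The other subunits were lower, with Spcs3 at 33.4 and 49.1 TPM, Spcs1 at 30.9 and 35.5 TPM and Spcs2 at 23.8 and 29.3 TPM.

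The oligosaccharyltransferase transfers the N-glycan, with Stt3a acting on chains as they enter and Stt3b on sites that were missed. Stt3a was at 43.8 and 57.5 TPM and Stt3b at 25.7 and 29.98 TPM, a ratio of 1.70 and 1.92 that was 1.496 and 1.53 on coding transcripts. The shared subunits were Rpn2 at 72.2 and 80.6 TPM, Rpn1 at 59.9 and 70.6 TPM, Ddost at 56.8 and 55.9 TPM, and Dad1 at 34.8 and 29.0 TPM. The 6 subunits thus lay within 25.7 to 72.2 TPM in replicate 1 and 29.0 to 80.6 TPM in replicate 2, without any at or above 100 TPM. Among 7 other genes of N-glycosylation, 5 were at or above 10 TPM, from Krtcap2, a small subunit of the same enzyme, at 75.5 and 88.6 TPM to Tusc3 at 2.21 and 3.27 TPM. Magt1, which is the alternative to Tusc3 in complexes with Stt3b, was at 20.99 and 32.0 TPM.

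The sensors of ER stress were low in comparison with the chaperones. Ern1 was at 13.2 and 14.9 TPM, Atf6 at 5.41 and 7.19 TPM, and Eif2ak3 at 4.22 and 4.73 TPM, an order that held in both libraries. Ern2, a relative of Ern1 that is known from gut epithelium, had 0 counts in both. The transcription factors were higher, Atf4 at 72.6 and 81.0 TPM and Xbp1 at 38.1 and 47.1 TPM. ATF4 protein is controlled largely by translation, so its message level does not tell how much protein was present. Of 8 known targets of ATF4 and the stress pathway it serves, 1 was at or above 10 TPM in both libraries, close to the 14.3% of all nuclear protein-coding genes, namely Ppp1r15a (GADD34) at 10.8 and 11.95 TPM. Ddit3 (CHOP) was at 4.08 and 10.6 TPM, Atf3 at 2.52 and 2.04 TPM, Trib3 at 0 counts in both and Chac1 at 0 and 1 count. Of 5 genes that serve the cleavage of ATF6 or the joining of cut Xbp1 RNA and related steps, all were at or above 1 TPM and 1 was at or above 10 TPM, Rtcb, the RNA ligase of that step, at 33.7 and 44.1 TPM. The lowest of the 5 was Traf2, an adaptor that binds IRE1, at 3.13 and 3.29 TPM.

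The degradation genes of the 45 were among the lowest. Herpud1, which gathers the degradation complex, was at 15.8 and 22.2 TPM, and Sel1l, the adaptor of the ubiquitin ligase, at 15.9 and 12.4 TPM. Syvn1 (HRD1), the ligase itself, was at 1.61 and 0.92 TPM on 563 and 334 counts. It was the one gene of the 45 under 1 TPM in a library. The other degradation genes lay between these values and higher ones: 6 of 10 were at or above 10 TPM, from Vcp, the ATPase that draws proteins out of the membrane, at 59.7 and 71.6 TPM to Erlec1, a lectin of this pathway, at 6.64 and 6.41 TPM. Upstream and downstream steps were present as well. Of 8 genes of the signal recognition particle and its receptor, 7 were at or above 10 TPM, from Srp14 at 36.6 and 48.3 TPM to Srprb at 4.80 and 5.78 TPM. Of 10 genes that trim glycans or check them for folding, 7 were at or above 10 TPM over all transcripts, as in the other lists. The highest was Uggt1, the folding sensor that adds glucose back, at 30.6 and 39.98 TPM. The lowest was its relative Uggt2 at 0.14 and 1.02 TPM. Transcripts annotated as coding held 17.8% and 15.98% of the Uggt1 TPM, against 95.7% and 97.6% for Mogs of the same list. Mogs was at 30.5 and 32.07 TPM, so Uggt1 led the list over all transcripts only. Of 15 genes of the coats, cargo receptors and KDEL receptors that carry proteins between the ER and the Golgi, 10 were at or above 10 TPM. They ran from the cargo receptor Lman1 at 43.8 and 42.8 TPM, and the lowest of the 15 was Kdelr3 at 0 and 0.13 TPM. Of 9 relatives of the 45 that are known from restricted tissues, 0 were at or above 10 TPM. Over all 81 other genes of the pathway, 43 were at or above 10 TPM, against 14.3%, and 68 at or above 1 TPM, against 40.8%.

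Part of the level of several genes was assigned to transcripts that are not annotated as coding. The share could be read for 44 genes, since the Spcs1 transcripts carry no name in the annotation used here. Under 50% of TPM on coding transcripts in both libraries was found for 3 of 44, Sec11a, Rpn2 and Sec63. This is near the background of 6.27% of nuclear protein-coding genes at or above 1 TPM. At least 95% on coding transcripts in both libraries was found for 25 of 44, near the background of 53.2%. For Rpn2, the 2314-base processed transcript Rpn2-206 held 77.9% and 75.3% of the TPM and 75.4% and 73.3% of the counts, so that Rpn1 was 0.829 and 0.875 of Rpn2 over all transcripts and 3.98 and 3.95 times Rpn2 on coding ones. For Sec11a, the processed transcripts Sec11a-208 and Sec11a-209 held 60.1% and 35.0% in replicate 1 and 53.6% and 28.6% in replicate 2. Most of the bases of these transcripts also lie in exons of the coding transcript, 2216 of 2314 for Rpn2-206 and 690 of 728 for Sec11a-208, so 98 and 38 of their bases lie outside those exons.

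**Figure D2:**
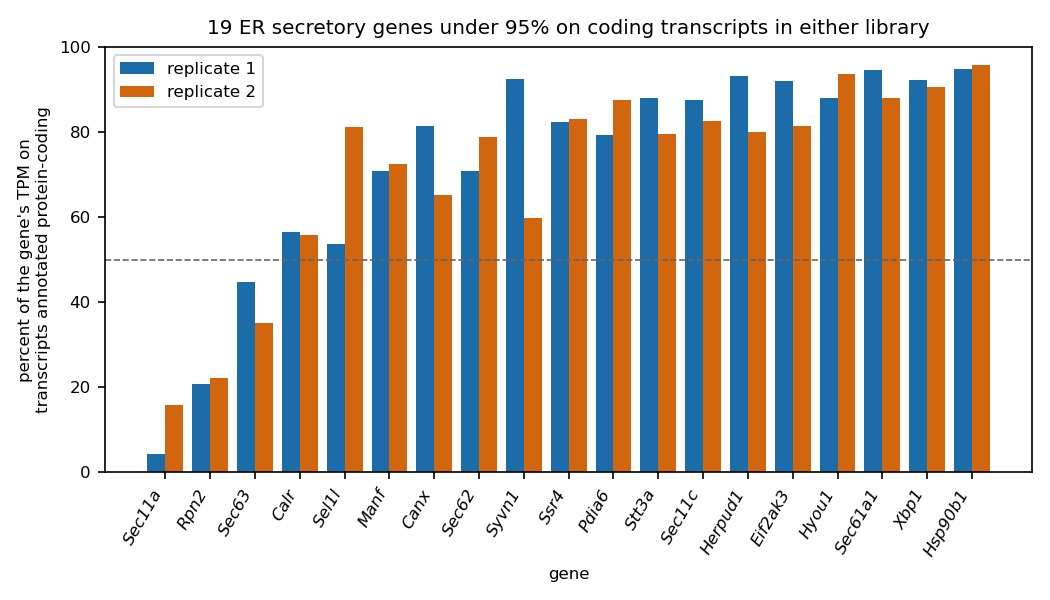
Percent of each gene's TPM on transcripts annotated protein-coding, for the 19 of 44 genes under 95% in either library, with bars for replicate 1 and replicate 2 and a dashed line at 50%. Sec11a, Rpn2 and Sec63 lie under the line in both libraries, and Sel1l, Canx and Syvn1 differ visibly between the libraries.

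Some short transcripts held a larger share of their gene's TPM than of its counts. Calr-204, a 943-base transcript with a retained intron, held 42.4% and 42.7% of the Calr TPM and 22.2% and 21.9% of its counts, with 87 of its bases outside the exons of the coding Calr-201. The coding transcript of Calr alone was at 519 and 601 TPM, rank 39 among nuclear protein-coding genes by coding TPM. Sec63-203, of 699 bases, held 49.6% and 60.8% of the Sec63 TPM on 8.26% and 11.7% of its counts. Canx-202, of 708 bases, held 17.9% of the Canx TPM in replicate 1 and 32.8% in replicate 2, on 3.12% and 6.49% of the counts. Sel1l-202, of 509 bases, held 28.7% of the Sel1l TPM on 218 counts in replicate 1 and 1.14% on 4.67 counts in replicate 2. The gene levels of Sec63, Canx and Sel1l therefore moved between the libraries with the counts given to 1 short transcript, and on their coding transcripts they were at 4.14 and 5.67, 153 and 190, and 8.54 and 10.1 TPM.

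Xbp1 (chr11:5520659-5525893, plus strand) is the message from which IRE1 removes a segment of 26 bases in the cytoplasm, which changes the reading frame and gives the active factor. The deposited tables list 4 Xbp1 transcripts. Xbp1-201, the coding transcript with 5 exons, held 82.5% of the gene's TPM in replicate 1 and 77.8% in replicate 2 (31.5 and 36.6 TPM). The retained-intron transcript Xbp1-202 held 7.67% and 9.38%, Xbp1-204 held 5.51% and 9.09%, and Xbp1-203 held 4.30% and 3.73%. The segment was located in exon 4 of Xbp1-201 as 2 copies of the loop sequence CNGCAGN at the spacing of the known cut sites. It covers transcript bases 818 to 843 at chr11:5524282-5524307 on the plus strand, and is shown in capitals with 24 bases on each side (chr11:5524258-5524331) because its loss is what marks the active form.
Xbp1: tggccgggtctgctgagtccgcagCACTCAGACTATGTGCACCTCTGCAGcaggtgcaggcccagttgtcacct

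The segment is whole in Xbp1-201, Xbp1-203 and Xbp1-204, and the smallest gap between exons in any Xbp1 transcript is 300 bases. Xbp1-202 does not hold it, because that transcript ends before exon 4. No listed transcript is joined across the segment, and the share of Xbp1 message cut by IRE1 cannot be read from these tables. The same spacing of the loop sequence occurs 1 more time in Xbp1-201, in exon 1, and the segment printed is the one in the exon known to be cut.

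**Figure D3:**
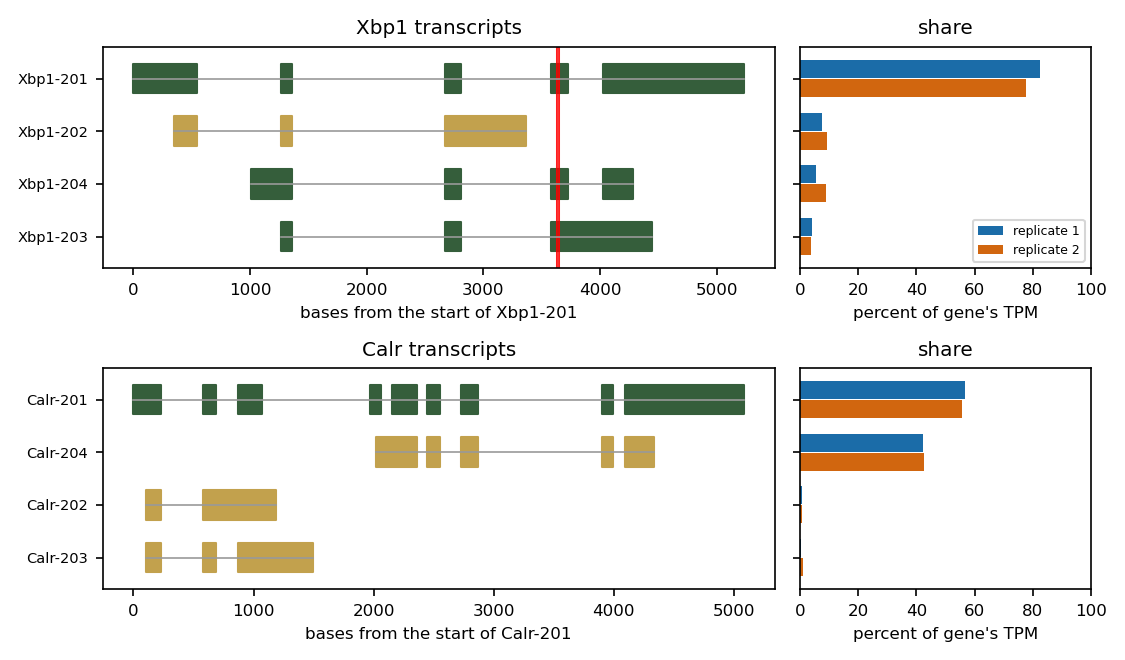
Exons of the Xbp1 and Calr transcripts (boxes, green for coding and ochre for retained intron) by distance in bases from the start of the coding transcript, with each transcript's percent of its gene's TPM in replicate 1 and replicate 2 at the right. The red band marks the 26 bases removed by IRE1, which lie in exon 4 of Xbp1-201; Calr-204 shares most of its exons with Calr-201 and holds 42.4% and 42.7% of the gene's TPM.

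The deposited TPM was higher in replicate 2 for 40 of 45 genes, against 77.6% of nuclear protein-coding genes at or above 1 TPM, a direction that goes with the larger share of protein-coding TPM in that library. Rescaled TPM was higher for 23 of 45, against 50.5%. The log2 of CPM, counts scaled to library size with edgeR's TMM factors, was higher for 19 of 45, against 49.6% of the genes kept. The median log2 CPM ratio of replicate 2 to replicate 1 was -0.03 over the 45 genes and -0.003 over the 12855 genes kept. No gene of the 45 was higher in replicate 2 by more than 1.5-fold, against 9.72% of the 12855 genes, and 2 were lower by more than that, against 11.3%. The background was smaller among abundant genes: over the 8300 nuclear protein-coding genes at or above 9.50 CPM, the level of the least abundant of the 45, the shares were 2.60% and 3.75%. The median size of the log2 ratio was 0.13 for the 45 genes and 0.18 over those 8300, which share their floor but were not matched to them in level. The lower genes were Syvn1 at -0.63, which has the fewest counts, and Dad1 at -0.59, on 3674 and 2255 counts, which lies just past the 1.5-fold line. Dad1 was inside that line with DESeq2 size factors and, at -0.53, on rescaled TPM. On rescaled TPM Sel1l was past it at -0.62, and Syvn1 was at -1.07. Highest in replicate 2 was Sec11a at 0.34.

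**Figure D4:**
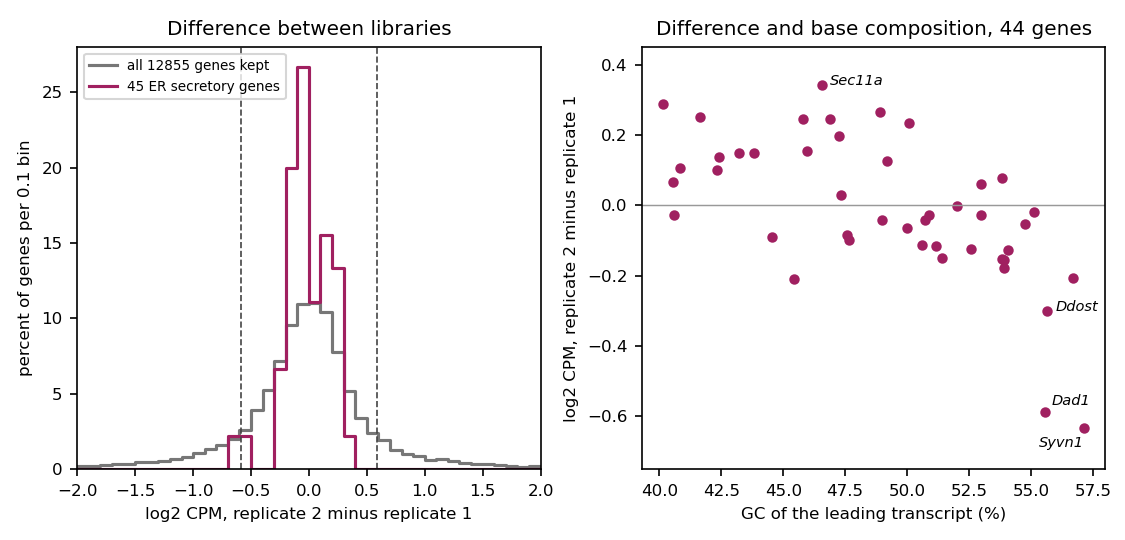
Left, distribution of the log2 CPM difference of replicate 2 minus replicate 1 in bins of 0.1 for all 12855 genes kept and for the 45 ER genes, with dashed lines at 1.5-fold. Right, the same difference for 44 ER genes against the GC content of the leading transcript: the 22 genes at or below the median GC have a median of 0.13 and the 22 above it of -0.11.

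The difference between the libraries moved with base composition. Over 44 genes with a leading transcript in the annotation, GC content ran from 40.2% to 57.2%, and the log2 ratio had a median of 0.13 in the 22 genes at or below the median GC and of -0.11 in the 22 above it. The ratio is from counts of the whole gene, while GC is that of the transcript with the highest mean TPM share. That transcript need not hold most counts, as Sec63-203 held 8.26% and 11.7% of those of Sec63. For Syvn1 and Sec61g the leading transcript differed between the libraries. Dad1, Ddost and Syvn1 lay at the high end of GC and at the low end of the ratio. Not every gene followed: Ssr4 (55.1% GC) was at -0.02, Creld2 (54.8%) at -0.05 and Manf (45.4%) at -0.21. The relation was not computed for genes outside the 45. Across these genes Pearson's r was -0.62 and Spearman's rho -0.65, given as a description, since all points share the same 2 libraries. The labelled size range, which has no unit, starts at 200 in both libraries and ends at 712 in replicate 1 and 1000 in replicate 2, and the implied fragment lengths were 178 and 214 bases. The part of base composition or fragment size in the differences of single genes was not tested. The deposited credibility bounds, which describe the estimator's own error, had a median width of 4.76% and 4.80% of the posterior mean TPM, and after rescaling they did not overlap between the libraries for 32 of 44 genes at or above 1 TPM in both, against 60.6% of all such genes.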

How the data were processed

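Total RNA of granulocyte-monocyte progenitors was sequenced in 2 libraries of 1 group. The deposited tables hold expected counts for genes and transcripts (reads shared between features are split by an estimator), with TPM and FPKM computed by the authors, posterior means and credibility bounds. For a transcript, its percent of the gene's TPM is deposited too. Assembly mm10 and GENCODE M4 are named in the deposited metadata, while no aligner or quantifier is given in the sources used here. Names, coordinates and classes came from GENCODE M21 by identifier without version (42462 of 43346 genes matched), and promoters from RefSeq, GRCm38.p6. Entries for tRNAs (26248) and spike-ins (97) were not used.

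The genes, their roles and the lists were chosen with earlier results of these data known, and all 45 genes are named, with the highest, the lowest and some other members of each list of pathway genes. Means are given ± SD over 2 libraries. Expected counts were rounded for edgeR 4.0.16 (R 4.3.3), filtered with filterByExpr, scaled with TMM factors and compared as log2 CPM with a prior count of 2. The ratio step was tested on simulated data. Pseudogene copies were sought with BLAST 2.17.0. Alternatives were DESeq2 1.42.0 size factors, no filter, other prior counts, FPKM, posterior means, rescaled TPM, other thresholds and each library alone. A zero count allows up to 3 counts, for counting error only. Protein sequences were not used here.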

Additional observations from a re-analysis of the deposited data

How the results depend on the processing

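The median level of 45.5 TPM over the 45 genes was 123 as FPKM, 217 as TPM rescaled over nuclear protein-coding genes and 40.1 TPM on coding transcripts alone (44 genes, chosen after seeing the data), and 41.9 to 49.1 TPM with each library left out in turn. It moved by less than 1 SD with posterior means and with a mean of log values. The 39 genes at or above 10 TPM became 34 to 44 under the alternatives, and the 10 at or above 100 TPM became 35 on rescaled TPM, 7 on coding transcripts alone and 10 to 13 with a library left out. The 2 genes past 1.5-fold between the libraries (Syvn1 and Dad1) became 1 with DESeq2 size factors and 0 at 2-fold. With no filter and with either other prior count there were 2, and on rescaled TPM there were also 2, but these were Syvn1 and Sel1l, with 1 of them past 2-fold. The median log2 ratio stayed within 0.1 of its value under every setting run. Under FPKM or posterior means, all 20 values for subunit ratios and Xbp1 shares moved by less than 1 SD. For FPKM this was fixed in advance, since FPKM and TPM differ by 1 factor per library, which cancels in a ratio. Only the posterior means could have moved these values. The ratios that moved did so on coding transcripts or with the Sec61g pseudogene included, where Sec61g to Sec61b went from 0.104 to 1.59. A ratio between libraries cannot be had with a library left out. No paired analysis was possible because the series has 1 group. The effect of depth was not tested. The least counted gene, Syvn1, had 563 and 334 counts.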
